A study of Homo sapiens with 4 samples.

Results

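Many protein-coding genes also give rise to spliced RNAs for which no open reading frame is annotated, and the annotation calls these processed transcripts. In MDA-MB-231 cells, 3513 processed transcripts were listed that came from genes with at least 1 listed protein-coding transcript. They were chosen by transcript type and gene alone, out of 43596 transcripts of 15113 genes, and belonged to 2485 of the 12120 genes with a listed coding transcript (20.5%, 95% Wilson interval 19.8 to 21.2%). A further 638 processed transcripts came from genes without a listed coding transcript and were not included. Each of the 3513 was set beside the coding transcript of the same gene with the highest mean, which is called its coding partner below.

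MDA-MB-231 is a human cell line of triple-negative breast cancer, long established in culture. Its cells were treated for 24 h with DMSO, the solvent (n = 2), or with 10 µM KH-3, a small molecule that blocks RNA binding by HuR (n = 2), and poly(A) mRNA libraries were sequenced. All 4 libraries came from this line and no untreated cells are part of the data used here. The deposited values are 1 mean normalized read count per transcript over the libraries. Because no value per library was used, sequencing depth and replicate error are unknown, no test was made, and the KH-3 and DMSO groups were not compared. The intervals given below are 95% intervals over transcripts (order statistics for medians, Wilson for shares). They give the uncertainty of a median or a share as if transcripts were independent, although transcripts share genes and reads. They are not the spread of transcripts, and carry neither counting error nor replicate error.

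Markers of the line were listed, among them VIM at 7072, AXL at 8520, MSN at 10867 and EGFR at 12174 for the highest coding transcript. ERBB2 was listed at 58.5 and EPCAM at 43.0, and coding transcripts of ESR1, PGR, CDH1 and KRT5 are not analysed here.

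Noncoding transcripts of coding genes arise when splice sites, promoters or 3′ ends are used that interrupt or omit the reading frame. An intron may be kept, an exon may be skipped or a new first exon may be joined. Some such RNAs stay in the nucleus, some are degraded by nonsense-mediated decay when they are translated, and others lack a usable start. HuR, the protein that KH-3 targets, binds AU-rich elements and U-rich stretches in mRNAs and their precursors.

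Sequences at the edge between what such a transcript shares with the coding transcripts of its gene and what it has of its own show how these forms differ. The 6 transcripts shown are among the most abundant, the highest relative to the coding partner, or belong to a gene of the study. Sequences were read from GENCODE release 44 on hg38, 5′ to 3′ on the transcript strand. Capitals mark 40 bases that lie in no exon of another coding transcript of the gene, and lower case marks 40 bases that do. The coordinates are those of the capitals.
RPL37-007 (chr5:40835019-40835058, minus strand): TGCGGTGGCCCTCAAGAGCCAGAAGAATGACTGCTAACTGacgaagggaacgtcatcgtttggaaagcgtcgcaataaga
LGALS1-003 (chr22:37676149-37676188, plus strand): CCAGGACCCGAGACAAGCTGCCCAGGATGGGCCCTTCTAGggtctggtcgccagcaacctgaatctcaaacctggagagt
MT2A-004 (chr16:56608765-56608804, plus strand): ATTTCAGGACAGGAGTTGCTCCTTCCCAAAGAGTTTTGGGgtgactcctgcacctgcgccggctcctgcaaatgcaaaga
CD82-014 (chr11:44604462-44604501, plus strand): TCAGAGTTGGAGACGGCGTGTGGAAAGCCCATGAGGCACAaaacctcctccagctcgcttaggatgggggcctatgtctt
NGRN-001 (chr15:90265877-90265916, plus strand): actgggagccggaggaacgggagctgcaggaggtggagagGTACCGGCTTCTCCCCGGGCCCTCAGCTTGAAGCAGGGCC
PSMA5-003 (chr1:109413028-109413067, minus strand): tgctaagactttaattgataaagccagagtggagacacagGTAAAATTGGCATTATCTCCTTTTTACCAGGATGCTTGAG

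In the first 4 of these, the edge was a splice junction, so an exon part absent from the coding transcripts was joined to a shared exon. The distance spanned was 412 bases in RPL37-007, 797 in LGALS1-003, 187 in MT2A-004 and 556 in CD82-014. In NGRN-001 and PSMA5-003 the edge was continuous in the genome, so the transcript ran on from a shared exon into the neighbouring intron. The capitals of both begin with GT, the letters with which most introns start.

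The noncoding transcripts were low by count and short. Their median mean normalized read count was 25.8 (interval 24.6 to 27.2, quartiles 12.8 and 75.7), against 430 (404 to 455) for the 2485 coding partners and 50.8 for all listed transcripts. The lowest of them was 7.34, which was also the lowest value of the whole table, and the highest was 8337. Means of 100 or more were reached by 713 (20.3%) and means of 1000 or more by 41 (1.17%). Their median length was 802 bases (789 to 821), against 2951 bases (2830 to 3084) for the partners. The partners are the highest coding transcripts of their genes, and all listed coding transcripts had a median count of 91.3. Per kb, the noncoding transcripts had a median of 29.0 (27.9 to 30.8), against 137 (128 to 145) for the partners. All listed coding transcripts had 35.9 per kb and all listed transcripts 28.1, so per kb the noncoding transcripts were near the whole.

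Relative to the coding partner, the median log2 ratio of the read counts was -3.63 (-3.73 to -3.52), so that the median noncoding transcript had 8.07% of its partner's count. A longer transcript gathers more reads, so the ratio was also taken per kb of length, where the median log2 ratio was -2.04 (-2.13 to -1.96), or 24.4% of the partner. The quartiles of the ratio per kb were 9.08% and 72.3% of the partner. By count, 323 of 3513 (9.19%) were above their partner, where 12.1% of all 12966 transcripts of types other than coding in these and other coding genes were above theirs. Per kb, 663 (18.9%) were above the partner, and this share was close to the 18.7% of all transcripts of types other than coding. The share per kb depended on the pairs taken: it was 33.2% with the longest coding transcript as partner, 32.0% where both means were at least 50, and 5.50% where the partner had at least 1000. The partner was chosen as the highest coding transcript by count, which lowers these ratios by construction, and reads shared within a gene were divided among its transcripts by estimation. Transcripts with a mean under the lowest listed value are not part of the ratios.

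**Figure D1:**
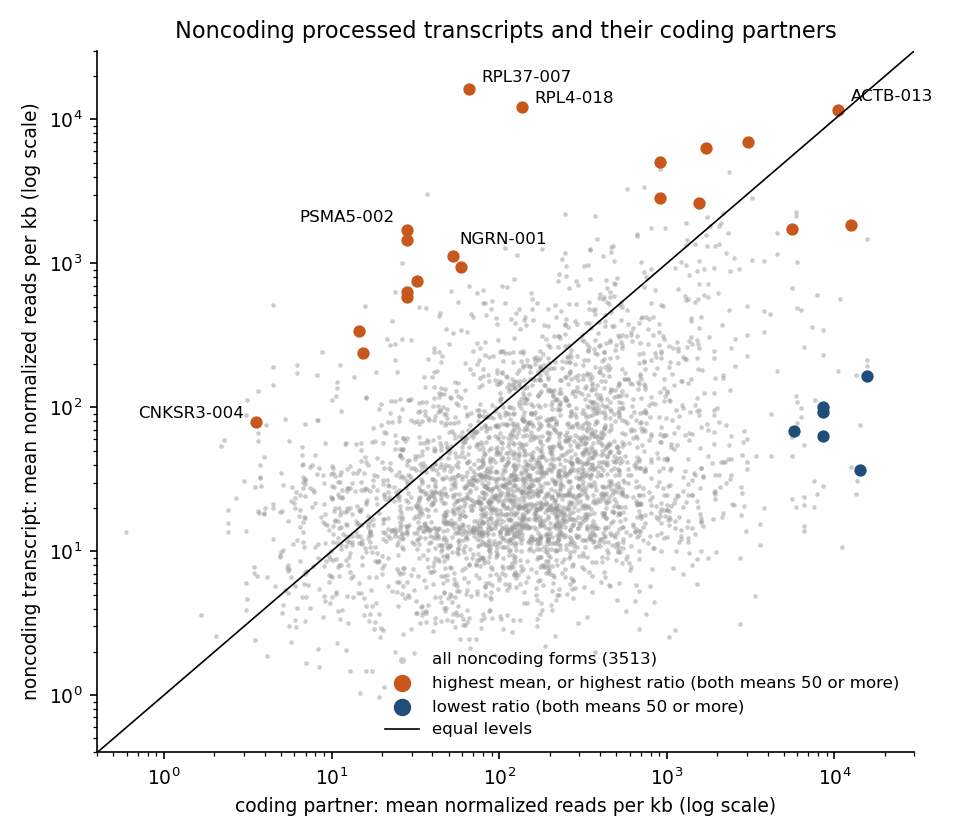
Level of each of the 3513 noncoding processed transcripts (vertical axis) against that of its coding partner (horizontal axis), both as mean normalized reads per kb on log scales, with the line of equal levels. Points above the line are the 663 transcripts that exceeded their partner per kb. RPL37-007, labelled at the top, was 249.6-fold above its partner RPL37-001, which had 65.6 reads per kb. Another coding transcript of the gene, RPL37-003, had 885 per kb.

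Most genes had few noncoding transcripts. A single one was listed in 1785 of the 2485 genes (71.8%), 486 genes (19.6%) had 2 and 214 genes (8.61%) had 3 or more, up to 9. Together they held 2.92% of all listed normalized reads and 10.4% of those within their own genes. In the median gene they held 7.06% of the listed reads (quartiles 2.39% and 20.1%). In 194 genes (7.81%, 6.82 to 8.93%) they held more than 50% of the reads, up to 98.9%.

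The most abundant noncoding transcripts came from ribosomal protein and other highly expressed genes. ACTB-013, from the gene of beta-actin, was listed at 8337 beside 20153 for its partner ACTB-001, which was 1.11-fold above the partner per kb. It is annotated as protein-coding in release 44. RPL37-007, from a gene of the large ribosomal subunit, reached 8274 with 505 bases, while the partner RPL37-001 had 504 with 7686 bases. Another coding transcript, RPL37-003, had 489 with 553 bases, or 885 per kb against 16384 for RPL37-007. RPL4-018, also of the large subunit, reached 4946, and RPL4-001 had 377. Both noncoding forms thus exceeded the partner by count and by length-corrected level, and they held 86.5% and 55.8% of the listed reads of their genes. RPL12-002 (4209) and RPS4X-003 (3159) stood below their partners at 6270 and 8506. Per kb the latter pair were at 14.7% and 31.1% of the partner.

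Other abundant forms came from genes of metabolism, matrix binding and proteolysis. LGALS1-003, from the gene of the secreted lectin galectin-1, had 3617 beside 1719 for LGALS1-001, and held 64.4% of the listed reads of the gene. PGK1, which encodes the glycolytic enzyme phosphoglycerate kinase, had PGK1-004 at 3563 and PGK1-005 at 2728 beside PGK1-001 at 4477. Both PGK1 forms were below the partner by count and 5.54-fold and 3.10-fold above it per kb. NGRN-001, from the gene of neugrin, had 3122 beside 385 for NGRN-002 and held 89.0% of the gene's listed reads. EIF1-003, from the gene of a factor in start codon choice, had 2919 beside 1241 for EIF1-010. PSMA5-002, from the gene of an alpha subunit of the proteasome core, had 2839 beside 105 for PSMA5-001. In the reference, every base of PSMA5-002 lay in exons of the gene's coding transcripts, and it had no splice junction that they lack. How far its count rests on the division of shared reads was not tested. MT2A-004, from the gene of a metal-binding metallothionein, had 2626 beside 989 for MT2A-005. Of the 12 most abundant forms, 7 exceeded their partner by count. Ribosomal protein genes, ACTB, PGK1 and EIF1 have near-identical pseudogene copies, so the division of reads between loci is uncertain there.

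Where the noncoding form and the partner both had a mean of at least 50, the highest ratios per kb belonged to RPL37-007 (log2 ratio 7.96) and RPL4-018 (6.48). Next came PSMA5-002 (5.92) and PSMA5-005 (5.70), with means of 2839 and 400.5 beside 105. The ratio of PSMA5-002 carries the limit given above, since that form had no base or junction of its own. CCDC59-004 had 745 beside 64.1 (4.55). CTBS-002, from the gene of the lysosomal enzyme chitobiase, had 978 beside 96.6 (4.53). HM13-005, from the gene of signal peptide peptidase, had 237 beside 107 (4.49), and CNKSR3-004 had 186 beside 74.8 (4.48). NGRN-001, at 3122 beside 385, followed at 4.40, and PSMA5-003 at 4.38 with 878 beside 105.

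CTSD-015, from the gene of the lysosomal protease cathepsin D, had 1194 beside 126 (3.99). IDH3A-002, from the gene of a subunit of mitochondrial isocitrate dehydrogenase, had 618 beside 63.9 (3.95). In all 12 of these the count itself was above that of the partner. They were chosen by ratio per kb, which favours a high count and a short form. The partners ran from 1983 bases in CCDC59-001 to 21063 bases in CNKSR3-001, and each of the 12 forms was shorter than its partner. In CNKSR3, another coding transcript, CNKSR3-005, had 73.4 reads with 2023 bases, or 36.3 per kb against 3.55 for the partner. CNKSR3-004 had 79.2 per kb. In CCDC59, CCDC59-007 had 93.4 per kb against 32.3 for the partner and 757 for CCDC59-004. The ratios per kb in these genes thus depend on the coding transcript taken.

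Low ratios per kb at the same minimum were found in ribosomal protein genes. RPL41-004 had 55.2 beside 7327 for RPL41-001, with a log2 ratio of -6.57, or 1.05% of the partner. RPSA-003 had 84.5 beside 5890 for RPSA-002, with a log2 ratio of -6.37, or 1.21% of the partner.

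The share of genes with a noncoding form and its level were described for 12 gene lists, without a test between lists. Beside the 20.5% of all coding genes, 25 of 80 ribosomal protein genes had one (31.3%), 25 of 78 splicing factor genes (32.1%) and 13 of 39 aminoacyl-tRNA synthetase genes (33.3%, 20.6 to 49.0%). At the other end, 6 of 43 RAB GTPase genes (13.95%, 6.56 to 27.3%) and 9 of 53 chaperone genes (17.0%) had one, and the intervals of the highest and lowest share overlapped. Translation factors, with 10 of 48 (20.8%), and invasion and matrix genes, with 12 of 56 (21.4%), were near the share of all genes.

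Ribosomal proteins had 53 noncoding forms with a median log2 ratio per kb of -6.31, or 1.26% of the partner, beside -2.04 over all genes. Of the 53, 5 were above the partner per kb (9.43%, beside 18.9% of all forms), among them RPL37-007 and RPL4-018. Where the partner had at least 1000, 5.50% of forms from all genes were above it per kb. The ratios of the 53 ran from -10.01 to 7.96, the range of all 3513 forms. The median partner of this list had 4505 reads, which leaves a wider range above the lowest listed value than the median partner of 453 over all noncoding forms.

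Genes of the respiratory chain carry out oxidative phosphorylation. Their 33 forms in 18 of 75 genes had a median log2 ratio per kb of -0.61 (65.7% of the partner). Of these forms, 13 (39.4%, 24.7 to 56.3%) were above the partner, beside 18.9% of all forms. Those with the highest means came from ATP5F1, which encodes a subunit of ATP synthase: ATP5F1-004 had 1982, ATP5F1-006 had 842 and ATP5F1-002 had 827, beside 876 for ATP5F1-005. ATP5F1-004 was above the partner, while ATP5F1-006 and ATP5F1-002 had 96.1% and 94.4% of its count.

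The 19 proteasome forms had a median of -1.95, and 7 (36.8%, 19.1 to 59.0%) were above the partner, beside 18.9% of all forms. Among the 7 were PSMA5-002, PSMA5-003, PSMA5-004 and PSMA5-005, which share reads and the same partner at 28.1 per kb. The interval counts each of them as independent. PSMA5-004, at 39.7 per kb, had a mean of 8.93, near the lowest listed value. Another of the 7 was PSMA7-004, at 2140 against 1733 for PSMA7-001. The 21 forms of mRNA decay genes had a median of -1.77, with 7 above the partner. This share was 33.3% (17.2 to 54.6%), and its interval includes the 18.9% of all forms. UPF3A-002, from a gene of the nonsense-mediated decay machinery, had 322 beside 102 for UPF3A-001. LSM1-004, from a gene of a ring that binds mRNA 3′ ends before decapping, had 290 beside 284 for LSM1-001. EXOSC3-009, from a gene of the RNA exosome, had 167 beside 404 for EXOSC3-001.

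The 21 forms of mitotic genes had a median of -1.73 and 4 (19.0%) were above the partner, near the 18.9% of all forms. PTTG1-007, from the gene of securin, which holds back separase until anaphase, had 849 beside 135 for PTTG1-002 and held 82.5% of the listed reads of its gene. CDC20-003, from the gene of an activator of the anaphase-promoting complex, had 285 beside 1511. Among 58 forms of splicing factor genes the median was -2.34 and 9 (15.5%, 8.38 to 26.9%) were above the partner. NONO-012, from the gene of a paraspeckle protein, had 841 beside 1008 and was 5.70-fold above the partner per kb, since it had 397 bases where the partner had 2713. SNRPE-005, from the gene of a core protein of spliceosomal snRNPs, had 548 beside 248.

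Among 14 forms of translation factor genes the median was -2.76. EIF4EBP1-002, from the gene of 4E-BP1, which represses the cap-binding protein eIF4E, had 860 beside 356 and held 70.7% of its gene. None of 11 chaperone forms was above the partner per kb (0%, upper bound 25.9%, which includes the 18.9% of all forms), and CANX-011, from the gene of calnexin, came closest with 974 beside 13736 and 87.5% of the partner per kb. The 24 forms of aminoacyl-tRNA synthetase genes had a median of -3.31, and YARS-005, at 370 beside 1149, had the same 355 reads per kb as its partner. The 6 RAB GTPase forms had a median of 0.03, and ran from -3.69 to 1.85 for RAB11A-008.

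Proteins that bind AU-rich elements or stabilise mRNA, the class to which HuR belongs, had 9 forms in 7 of 25 genes. Their median was -3.05 and none was above the partner (0%, upper bound 29.9%, which includes the 18.9% of all forms). RBMS1-002 had 121 beside 441, YBX1-003 had 87.0 beside 11625 and YBX3-011 had 27.4 beside 414. The 17 forms of invasion and matrix genes had a median of -2.69. LAMC1, which encodes the gamma 1 chain of laminins, had LAMC1-002 at 412, LAMC1-005 at 270 and LAMC1-004 at 84.6 beside 4188, and per kb these were at 99.2%, 75.6% and 22.8% of the partner.

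**Figure D2:**
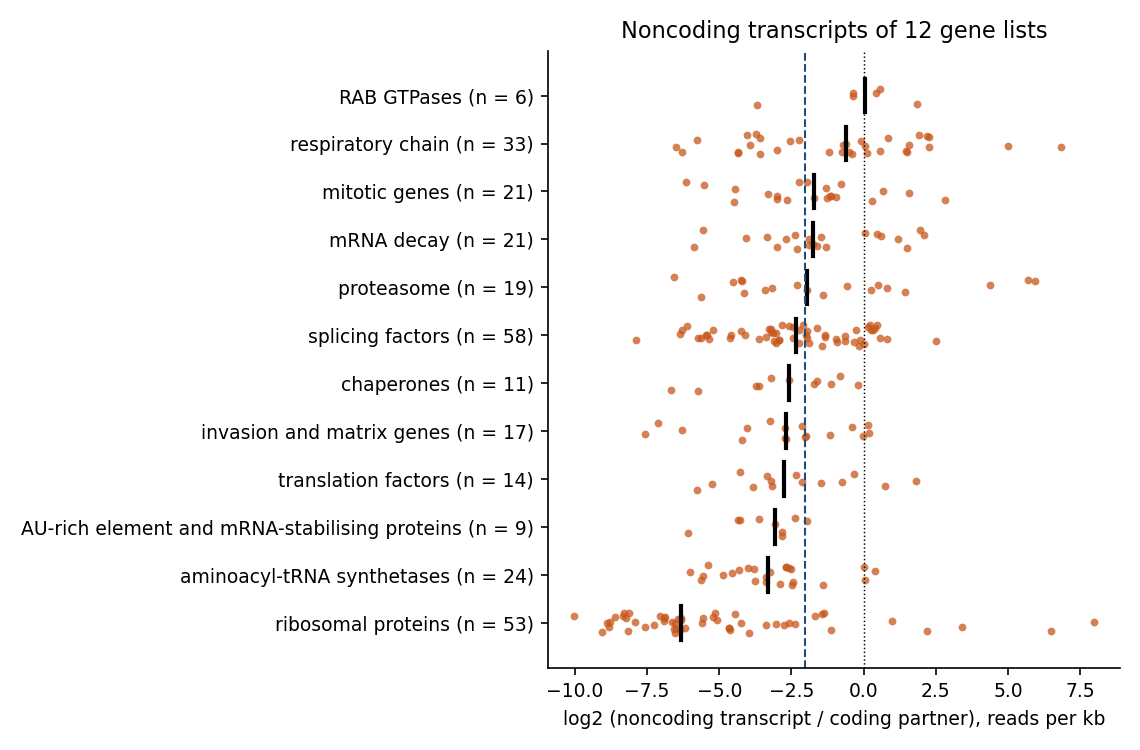
Log2 ratio per kb of each noncoding form to its coding partner (horizontal axis) in 12 gene lists, 1 point per transcript, with a black bar at the list median. The dotted line marks equal levels and the dashed line the median of all 3513 forms (-2.04), and the list medians run from -6.31 for ribosomal proteins to 0.03 for RAB GTPases.

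Of the genes that the study examined by name, 8 were chosen here: ELAVL1, CTNNB1, CD82, FOXQ1, MSI2, BCL2, XIAP and CDH1. Of these, 2 had a listed noncoding form together with a listed coding transcript, as the rule used here requires. Coding transcripts of CDH1 are not analysed here, so CDH1 could not be counted under this rule. A form with a mean under the lowest listed value would not be counted either. CD82-014, from the gene of a tetraspanin known as a metastasis suppressor, had 60.4 beside 138 for CD82-001. Per kb it stood at 112% of the partner, and it held 21.96% of the gene's listed reads. Another coding transcript, CD82-011, had 79.3 per kb, above the 67.7 per kb of CD82-014. For CD82-014, 74.6% of the bases lay in coding sequence of the gene. Its longest open reading frame had 236 residues where that of the partner had 267, and it ended 1083 bases upstream of the partner's end. At the edge of CD82-014 printed above, a piece absent from the coding transcripts is joined to an exon they share. XIAP-006, from the gene of an inhibitor of caspases, had 10.8 beside 392 for XIAP-201. It held no base of the coding sequence and stood at 36.8% of the partner per kb.

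The genes with the most noncoding forms were NOP56 with 9, HM13 and RABGGTB with 8 each, and FNBP4 and KRT7 with 7 each. NOP56, a core protein of box C/D small nucleolar RNPs, had forms from 9.18 (NOP56-011) to 355 (NOP56-008), beside 319 for the partner NOP56-010. NOP56-003 at 343 was also above the partner and NOP56-017 at 218 was below it by count. Together the 9 forms held 57.1% of the listed reads of the gene, and 7 of them span at least 1 of its 5 small nucleolar RNA genes.

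HM13 had forms from 7.78 (HM13-010) to 237 (HM13-005), and HM13-005 alone was above the partner by count (107), while 4 of the 8 were above it per kb. The 8 forms held 60.7% of the gene. RABGGTB, the beta subunit of the enzyme that adds geranylgeranyl groups to RAB GTPases, had forms from 9.70 (RABGGTB-014) to 855 (RABGGTB-003), all below the partner at 1382, and they held 55.9% of the gene. Of its 8 forms, 6 span at least 1 of its 3 small nucleolar RNA genes. FNBP4 had forms from 9.29 to 385 beside 1698, and KRT7, the gene of a simple epithelial keratin, from 11.4 to 305 beside 3369. In these genes the forms held 23.5% and 14.4% of the listed reads. Within each of the 5 genes the highest form was 26.7-fold to 88.2-fold above the lowest.

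**Figure D3:**
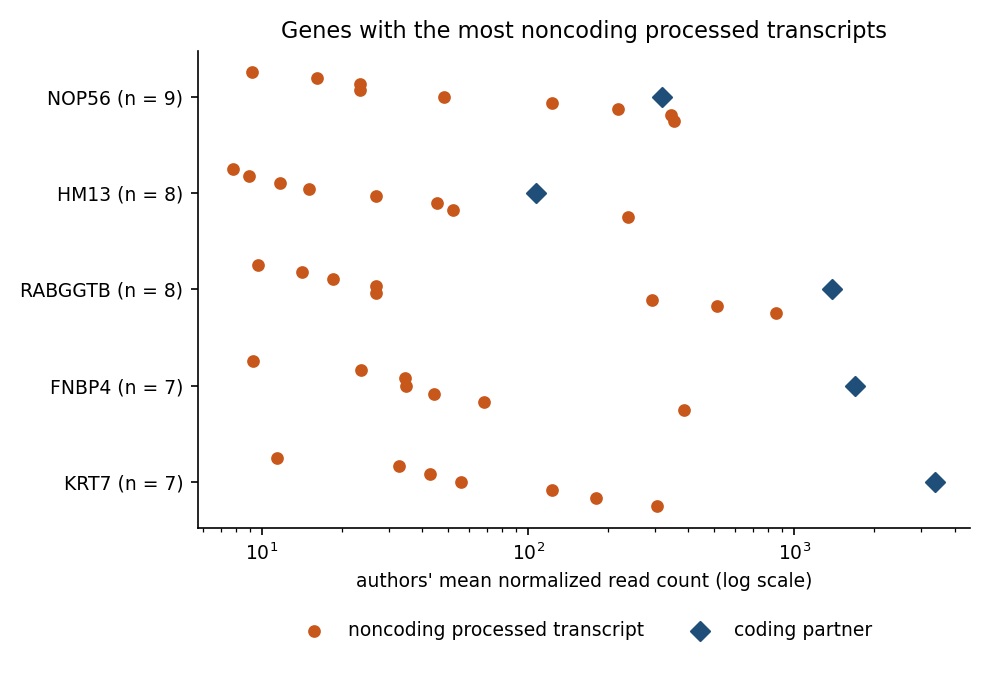
Mean normalized read count on a log scale (horizontal axis) of the noncoding forms (circles) and the coding partner (diamond) in the 5 genes with the most forms. In NOP56 and HM13 the highest forms lie beyond the partner, and in RABGGTB, FNBP4 and KRT7 every form lies below it.

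Genes of small nucleolar or Cajal body RNAs lay between the ends of 61 of 3446 noncoding forms found in the reference (1.77%). These 61 had a median log2 ratio per kb of -4.20 (-5.41 to -2.92), against -2.03 (-2.12 to -1.96) for the others, and their partners were shorter, with a median of 1496 bases against 2940. Of genes with a noncoding form, 2.34% (1.81 to 3.01%) host such an RNA gene, and of genes without one 1.65% (1.42 to 1.93%). Among genes with 3 or more forms the share was 4.67% (2.56 to 8.39%).

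Most of the noncoding forms consist of pieces of the coding gene. Of the 3513, 3446 (98.1%) were found in release 44, and 3131 of these (90.9%) now carry the type coding gene without a defined reading frame. A further 172 are annotated as retained intron, 73 as protein-coding and 64 as targets of nonsense-mediated decay. The median form had 4 exons where the median partner had 9. In the median form 47.2% of the bases lay in coding sequence of the gene (45.3 to 48.8%), 21.8% lay outside all exons of its coding transcripts, and 70.8% lay in exons of the partner. A splice junction that no coding transcript of the gene has was present in 2486 of 3446 (72.1%, 70.6 to 73.6%). In 74 (2.15%) every base lay in coding exons and no junction was their own.

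By structure, forms with a junction of their own had a median log2 ratio per kb of -1.96 (-2.05 to -1.83), forms with no such junction but with bases outside coding exons had -2.45 (-2.58 to -2.25), and the 74 with neither had -1.39 (-2.09 to -0.51). Forms with at least 75% of their bases in partner exons had -1.69 (-1.81 to -1.46), those with 50 to 75% had -2.36, those with 25 to 50% had -2.48 and those with under 25% had -2.30 (-2.64 to -2.01), so the ratio did not follow the overlap step by step. Where the main transcript of the gene in release 44 was not among the rows, which held for 428 forms, the median was -1.12 (-1.37 to -0.77) and 30.4% were above the partner. Where it was among the rows the median was -2.18 (-2.29 to -2.07) and 17.2% were above the partner.

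The forms mostly ended before their partners. The 3′ end lay more than 100 bases upstream of the partner's end in 2446 of 3373 forms with both transcripts in the reference (72.5%), within 100 bases in 705 (20.9%) and more than 100 bases downstream in 222 (6.58%). The 5′ end lay more than 100 bases downstream of the partner's start in 2180 (64.6%). Both ends were within 100 bases of the partner's in 172 (5.10%).

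Poly(A) signals were searched as AATAAA or ATTAAA on the transcript strand in the last 50 bases. Both hexamers cannot start at the same base, and a transcript with either or both was counted a single time. They were present in 1143 of 3446 noncoding forms (33.2%, 31.6 to 34.8%) and in 79.1% of the partners, beside 35.6% of all transcripts in the reference. In a window of the same length in the middle of the same forms, 3.54% had a hexamer. Forms that ended within 100 bases of the partner had a signal in 77.9%, those that ended upstream in 18.9% and those that ended downstream in 47.3%. The upstream forms without a signal numbered 1984 and had a median mean of 21.8, while forms that ended near the partner with a signal had 49.1. Per kb, the medians of these classes relative to the partner were -2.18 (-2.31 to -2.06) and -1.97 (-2.19 to -1.65).

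**Figure D4:**
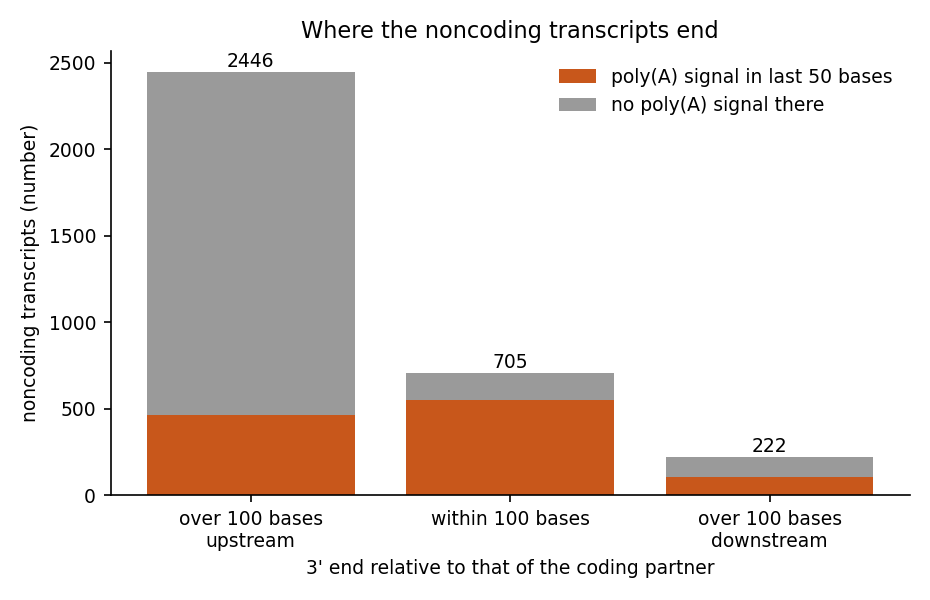
Number of noncoding forms (vertical axis) whose 3′ end lies upstream of, near or downstream of that of the coding partner, split by whether a poly(A) signal hexamer lies in the last 50 bases. Of 2446 forms that end upstream, 462 have a signal, and of 705 that end near the partner's end, 549 have one.

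The longest open reading frame of the noncoding forms had a median of 82 residues (80 to 85) and that of the partners 425 (412 to 437). In 1431 forms (41.5%) it had 100 residues or more. AUUUA, the core of AU-rich elements, occurred at a median of 0.71 per kb in the noncoding forms (0.58 to 0.80) and 1.14 per kb in the partners (1.09 to 1.20). At least 1 AUUUA was present in 56.6% of the noncoding forms and 81.8% of the longer partners. The median GC content was 48.1% (47.7 to 48.6%) in the noncoding forms and 47.0% (46.4 to 47.6%) in the partners.

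Beside the other noncoding types of coding genes, the processed transcripts were the shortest and by count the lowest relative to the partner. The 6577 retained intron transcripts had a median length of 1195 bases, a median log2 count ratio of -3.25 (-3.32 to -3.16) and a median per kb of -2.14 (-2.21 to -2.08). The 2837 transcripts annotated as targets of nonsense-mediated decay had 1793 bases, -2.63 (-2.76 to -2.49) and -1.84 (-1.95 to -1.74). Per kb the median of -2.04 for processed transcripts lay between the other two, and its interval overlapped that of the retained intron type but not that of the decay targets. The share above the partner per kb was 17.0% for retained introns and 22.3% for decay targets, beside 18.9% for processed transcripts.

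In structure the types were further apart. A junction of their own was present in 72.1% of processed transcripts, 15.7% of retained intron transcripts and 93.4% of decay targets. Bases outside coding exons made up 21.8%, 37.2% and 3.13% of the median transcript. A poly(A) signal was present in 33.2%, 34.2% and 43.8%, and the longest open reading frame had a median of 82, 122 and 215 residues.

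**Figure D5:**
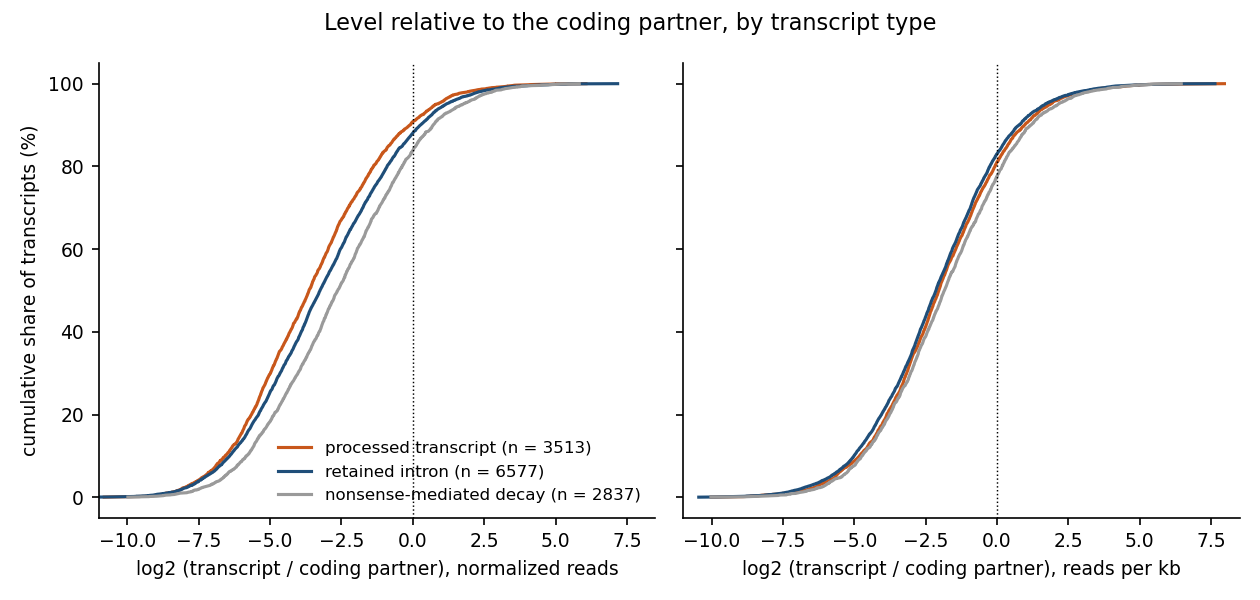
Cumulative share of transcripts (vertical axis, percent) against the log2 ratio to the coding partner (horizontal axis) by normalized reads (left) and per kb (right) for 3513 processed transcripts, 6577 retained intron transcripts and 2837 decay targets. The curves are apart by count, with medians of -3.63, -3.25 and -2.63, and lie closer together per kb, with medians of -2.04, -2.14 and -1.84.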

How the data were processed

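Libraries were prepared with the TruSeq Standard mRNA kit from MDA-MB-231 cells given DMSO or 10 µM KH-3 for 24 h (2 libraries each). The authors mapped the reads to GENCODE release 24 transcripts on hg38 with STAR, used eXpress to estimate how many reads each transcript gave, and tested KH-3 against DMSO with DESeq2. Tool versions are not given in the sources used here. The deposited signal is the authors' mean normalized read count of each transcript over the libraries, scaled between libraries and not by transcript length. It has no value per library, so depth and replicate error are unknown. The deposited columns of the authors' log2 fold change, p-value and q-value of KH-3 against DMSO hold their own comparison and were not used.

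Transcripts typed as processed transcript were paired with the coding transcript of highest mean of the same gene. Log2 ratios were taken of the means and of the means per kb, with no pseudocount. Structure and sequence came from GENCODE release 44 (hg38), matched by transcript identifier without version, so they may differ from the release that the authors used. Coding exons of a gene excluded the transcript under study. Open reading frames ran from ATG to a stop codon. Splice junctions, ends and hexamers were taken from the reference alone. Multiple copies of a gene and transcripts of 1 gene share reads, which eXpress divides by estimation, and this limits each ratio.

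Named transcripts were the 12 with the highest mean, the 12 with the highest and the 6 with the lowest ratio per kb where both means were at least 50, those of the 5 genes with the most forms, the 3 of highest mean in each of 12 gene lists, and all forms of 8 genes of the study. Some items that this rule selects are not reported here. The set of transcripts and the lists were chosen with earlier results of these data known. Alternatives covered the partner, a minimum mean of 20 or 50, effective length (200 bases subtracted, transcripts of at least 250 bases) and 1 form per gene. Another 3, a partner of at least 1000, the same length in both releases and the main reference transcript as partner, were chosen after seeing the data. Ratios and intervals were tested on simulated data made with set ratios. The software was matplotlib 3.10.9, scipy 1.17.1, pandas 2.3.3, numpy 2.4.6 and Python 3.11.15.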

Additional observations from a re-analysis of the deposited data

How the results depend on the processing

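The median log2 ratios stayed below 0 in all 25 settings run. Of 51 alternative values 14 moved by less than the interval over transcripts and 37 by more. Those that are not log2 ratios are shares, densities or lengths, which cannot change sign. No paired analysis was possible because the table gives 1 mean over the libraries and no value per library, and for the same reason no replicate could be left out. Matching genes by identifier changed no value, and leaving out ribosomal protein, translation factor and chaperone genes moved none beyond its interval.

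Values are given as the median log2 count ratio, the median log2 ratio per kb, the share above the partner by count and that share per kb, which were -3.63, -2.04, 9.19% and 18.9%. With the partner of highest count per kb, the shares were 10.2% and 17.5%. With all coding transcripts of the gene together the values were -3.998, -2.47, 7.26% and 13.01%. With the longest coding transcript as partner they were -2.89, -1.11, 17.1% and 33.2%. With both means at least 20 they were -2.83, -1.42, 11.95% and 24.7%, and at least 50 they were -2.26, -0.86, 14.4% and 32.0%. With 1 form per gene they were -3.29, -1.76, 11.2% and 21.97%. With effective length the values per kb were -1.71 and 23.2%. With partners of at least 1000 they were -5.77, -3.50, 0.529% and 5.50%. With the main reference transcript as partner the first 3 were -3.83, -2.18 and 7.42%. With both transcripts of equal length in both releases, which left 958 forms, the first 3 were -3.10, -1.75 and 12.1%.

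A limit of 100 in place of 25 bases for a shared 3′ end gave 20.9% in place of 17.5%. AATAAA alone gave a poly(A) signal in 25.7% in place of 33.2%. The longer element UAUUUAU had a median of 0 per kb in place of 0.71 for AUUUA. The lowest listed mean bounds each ratio from below, since a form under it is not listed whatever its partner. The cause of the other shifts was not tested.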

Other observations

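Among listed pairs, the level of a noncoding form was only loosely tied to that of its partner. Across the 3513 pairs, the Spearman correlation of the means was 0.18, and that of the mean with the form's own length was 0.17. The pairs share libraries and, within a gene, reads, so these are descriptions. Forms under the lowest listed value of 7.34 are missing, and the lower quartile of the listed forms was 12.8. How far this cut alters the correlations was not tested.

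By length, the median log2 count ratio was -4.68 for the 405 forms under 500 bases and -2.37 for the 688 forms of 2000 bases or more. Per kb the medians were -1.81 and -2.35, in the opposite order. Forms now annotated as protein-coding (73) had a median log2 ratio per kb of -1.58 (-2.36 to -0.63), and those now annotated as targets of nonsense-mediated decay (64) had -2.82 (-3.11 to -2.30).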
